A study of Mus musculus with 12 samples.

Results

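The genes examined here encode subunits of the N-methyl-D-aspartate receptor (NMDAR), the receptor blocked by the antagonist used in the study. They are Grin2a, Grin2b, Grin2c, Grin2d, Grin3a and Grin3b. They were taken as a family by function, with earlier results of these data known. These 6 genes are 6 of the 17186 genes tested, each is represented by exactly 1 probe set, and the probe sets are 10437629, 10548791, 10392863, 10563421, 10512919 and 10364583 in the same order. Grin1, which encodes the obligatory subunit, was not analysed here because the annotation used lists no probe set under that name. Hypothalamic RNA of male C57Bl/6J mice aged 21 weeks was hybridized to 12 arrays, 3 for each of 4 groups. Control mice (CON) received neither agent. CGP mice were exposed to the competitive NMDAR antagonist CGP 39551 during development only, from conception to postnatal day 28. The drug was given in the drinking water of their dams, at 5 mg/kg of dam body weight. The dose that reached the offspring is not given. ASP mice were exposed to the sweetener aspartame from before birth to adulthood at 46 mg/kg body weight in drinking water, and ASP+CGP mice received both agents on these schedules. The CGP drug had thus been stopped long before the tissue was taken, whereas aspartame had not.

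Each group was represented by 1 pool of RNA, measured on 3 arrays. Every SD, SE and p-value below therefore covers repeat measurements of a pool. How much single mice varied is not measured, and a treatment effect cannot be told apart from a difference between pools. Values are log2 signals, on which a difference of 1 is a doubling, and they are compared only for the same gene across pools. Arrays correlated at 0.992 to 0.997 within pools and at 0.986 to 0.995 between pools over all deposited probe sets. In CON and in ASP+CGP the third array deviated most from its pool (SD over genes of 0.09 and 0.10, against 0.049 to 0.07 on the other 10). Results that turn on these 2 deviating arrays are also given without them. All comparisons with CON share the CON arrays. Of 14 hypothalamus markers, 13 were measured, with none under a log2 signal of 6 in any pool. The log2 of their summed signal was 14.58 to 14.71 in CON and 14.35 to 14.44 in the other pools, and 11 neuron markers were measured, none under 6. Markers of other regions and organs also differed between pools. The most uneven were 11 pituitary markers, whose summed log2 signal was 14.18 to 14.25 in CON, 15.02 to 15.05 in CGP, 15.19 to 15.20 in ASP and 12.21 to 12.39 in ASP+CGP. Compared with CON, their median was 0.63 for CGP, where 8 were higher at an adjusted p under 0.05, 0.81 for ASP, where 9 were higher, and -0.82 for ASP+CGP, where 6 were lower, and the pituitary hormone genes Prl and Gh fell most in ASP+CGP (-3.22 ± 0.14 and -2.31 ± 0.04). Of all genes, 0.628%, 4.08% and 1.75% passed the adjusted p in these 3 comparisons. Gnrhr, counted among the 8 and the 9, was under 6 on all CON and ASP+CGP arrays. It met the minimum signal for testing only through CGP and ASP arrays, so its place in these counts is no further sign of a high level there. The part of pituitary RNA in the values of the subunit genes was not tested.

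NMDARs are glutamate-gated cation channels that pass calcium once magnesium block is relieved by depolarization, and they need glycine or D-serine as a co-agonist. Each receptor combines GluN1 with GluN2 subunits, which bind glutamate, or with GluN3 subunits, which bind glycine and lower calcium flow. GluN2B (Grin2b) and GluN2D (Grin2d) are known as the subunits of early development, and GluN2A (Grin2a) and GluN2C (Grin2c) as those that rise after birth. In the hypothalamus these receptors take part in feeding, neuroendocrine secretion and circadian timing. Competitive antagonists such as CGP 39551 occupy the glutamate site, and aspartate, a product of aspartame digestion, is itself an agonist at that site.

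The pool means of each of the 6 subunit genes lay within 1.16-fold of one another. All 6 passed the minimum signal of 6 used for testing, a filter that most genes pass and that does not show expression. The lowest signals were those of Grin3b, at 7.13 to 7.32, under the array medians of 8.28 to 8.34. The span from the lowest to the highest pool mean was 0.07 for Grin2c (1.05-fold), 0.10 for Grin3a (1.07-fold) and 0.10 for Grin3b (1.07-fold). It was 0.14 for Grin2d (1.1-fold), 0.16 for Grin2a (1.11-fold) and 0.21 for Grin2b (1.16-fold). By limma's moderated F test of any difference among the 4 pools, 0 of the 6 passed an adjusted p of 0.05, against 6.69% of all genes. The adjusted p-values were 0.06 for Grin2a, 0.31 for Grin2b, 0.35 for Grin3b, 0.54 for Grin2d, 0.62 for Grin3a and 0.69 for Grin2c. Before adjustment 1 of the 6, Grin2a, lay under 0.05, against 22.4% of all genes. With the pools ordered by their means, the arrays of neighbouring pools overlapped for every subunit gene, except between CON and ASP+CGP for Grin2a and between ASP and CON for Grin3b. The order is a description, since neighbours are by construction the pools that differ least. In tissue RNA a lower signal may come from fewer cells of a type or from less RNA per cell, and these cannot be told apart.

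**Figure D1:**
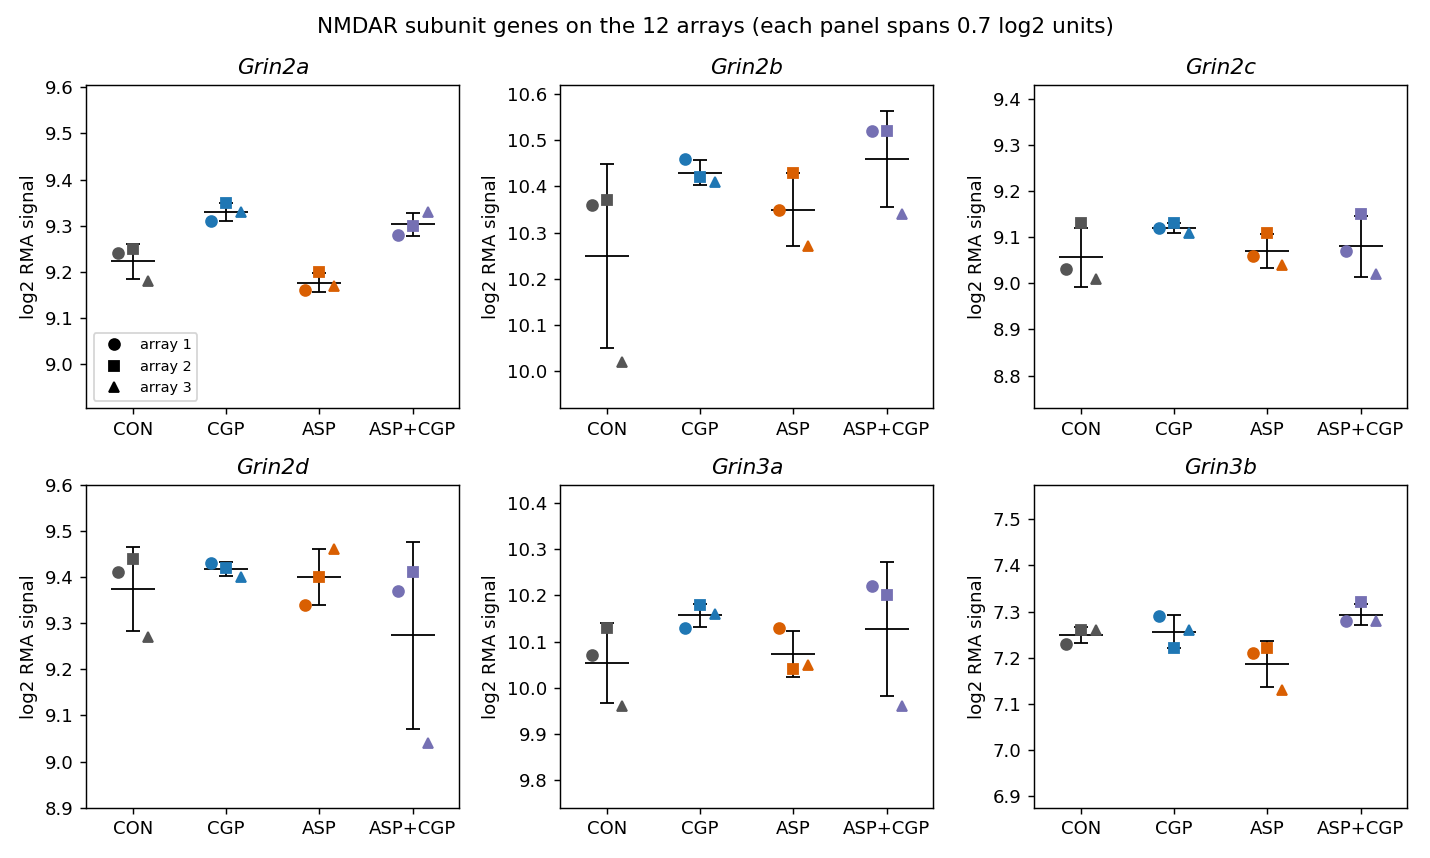
Log2 RMA signal (vertical axis) of the 6 NMDAR subunit genes on the 12 arrays, by pool (horizontal axis). Circles, squares and triangles are arrays 1, 2 and 3 of a pool, the long bar is the pool mean and the whiskers are 1 SD. The 6 arrays of CGP and ASP+CGP lie at 9.28 to 9.35 for Grin2a, above the remaining 6, while the triangle of CON stands low for Grin2b and that of ASP+CGP low for Grin2d.

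Grin2a, the GluN2A subunit gene of mature synapses, was the subunit gene that separated the pools by antagonist. The 3 CON arrays read 9.24, 9.25 and 9.18, and the 3 ASP arrays read 9.16, 9.20 and 9.17. The 3 CGP arrays read 9.31, 9.35 and 9.33, and the 3 ASP+CGP arrays read 9.28, 9.30 and 9.33. All 6 arrays of the pools with developmental antagonism thus lay above all 6 arrays of the pools without it, which held for no other subunit gene. Of all genes, 1.04% showed such a separation in the same direction. The pool means were 9.22 ± 0.04 for CON, 9.33 ± 0.02 for CGP, 9.18 ± 0.02 for ASP and 9.30 ± 0.02 for ASP+CGP (SD, n = 3 arrays).

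Averaged over both diets, Grin2a was 0.12 ± 0.03 higher with the antagonist (log2 fold change ± SE, 1.08-fold, 95% interval 0.06 to 0.18, adjusted p = 0.025 in limma). This passed the adjusted p but not the fold change of 1.4 that a call also required. By the adjusted p alone 1 of the 6 members was called in this average, against 4.4% of all genes, and with the fold change 0 of 6 against 0.442%. Within the separate diets the differences were 0.11 ± 0.04 in CGP vs CON (adjusted p = 0.28) and 0.13 ± 0.04 in ASP+CGP vs ASP (adjusted p = 0.066). In CGP vs ASP, the highest against the lowest pool, Grin2a was 0.16 ± 0.04 higher (adjusted p = 0.04), and 1 of 6 members was called by the adjusted p alone against 3.42% of all genes. The interaction of the 2 treatments was 0.02 ± 0.05 with a 95% interval of -0.10 to 0.14. Without any single CGP array, or without the first or the third ASP array, the adjusted p of the antagonist average lay between 0.051 and 0.068, and the difference stayed between 0.11 and 0.12. In CGP vs ASP it did not pass the adjusted p in 10 of the 12 fits that left out 1 array. Without the 2 deviating arrays the antagonist average was 0.10 ± 0.02 (adjusted p = 0.024). Grin2a was measured with little spread, a residual SD of 0.026 that only 1.33% of genes undercut, against 0.07 for the median gene.

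In the antagonist average, markers of thalamus, habenula and cerebellum moved in the same direction as Grin2a. Those of the striatum did not (median 0.00, 2 of 5 above 0). Of 8 cortex and hippocampus markers, 6 lay above 0 (median 0.11). The marker lists were chosen with earlier results of these data known, so their counts are descriptions and no independent test. In this average, where 4.4% of all genes passed the adjusted p, 9 of 12 thalamus markers passed and were higher. Their list median was 0.21 against 0.01 for all genes. The log2 of their summed signal was 14.11 to 14.18 in CON, 14.23 in ASP, 14.34 in CGP and 14.35 to 14.39 in ASP+CGP. The largest differences among them were those of the transcription factor gene Lhx9 (0.39 ± 0.03), the protein kinase gene Prkcd (0.28 ± 0.03) and the nuclear receptor gene Rora (0.24 ± 0.03). Habenula markers were higher for 7 of 10 genes (median 0.22), with summed signals of 12.73 to 12.93 in CON, 12.89 to 12.91 in CGP, 12.74 to 12.79 in ASP and 12.90 to 12.95 in ASP+CGP. Cerebellar granule cell markers were higher for 7 of 14 genes (median 0.13), with summed signals of 13.07 to 13.15 in CON, 13.28 to 13.31 in CGP, 13.19 to 13.23 in ASP and 13.20 to 13.36 in ASP+CGP. Against CON, 1 of the 14 was higher past the adjusted p in CGP (0.628% of all genes passed) and 6 in ASP+CGP (1.75%). No thalamus or habenula marker was under 6 in any pool, and Gabra6 of the cerebellar list was under 6 on all ASP arrays. Grin2a in ASP vs CON was -0.05 ± 0.04 (adjusted p = 0.58), with overlapping arrays. None of the 11 neuron markers passed the adjusted p in the antagonist average, though 10 of the 11 lay above 0 (median 0.05 against 0.01 for all genes). Their summed signal lay between 15.68 and 15.79 in all pools. Of 13 hypothalamus markers, 0 lay above 0 in the antagonist average (median -0.10), and 4 were lower at an adjusted p under 0.05. Among these 4, Nr5a1 had the largest difference (-0.35 ± 0.03). Its level was raised in ASP, by 0.61 ± 0.05 over CON, and the ASP pool also carried adrenal markers (below). Their part in the Nr5a1 value was not tested. Pituitary markers were lower for 6 of 11 genes in the antagonist average (median -0.30). That average joins opposite directions, since their median was 0.63 in CGP vs CON and -1.68 in ASP+CGP vs ASP. The part of all these regions in the Grin2a difference was not tested.

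**Figure D2:**
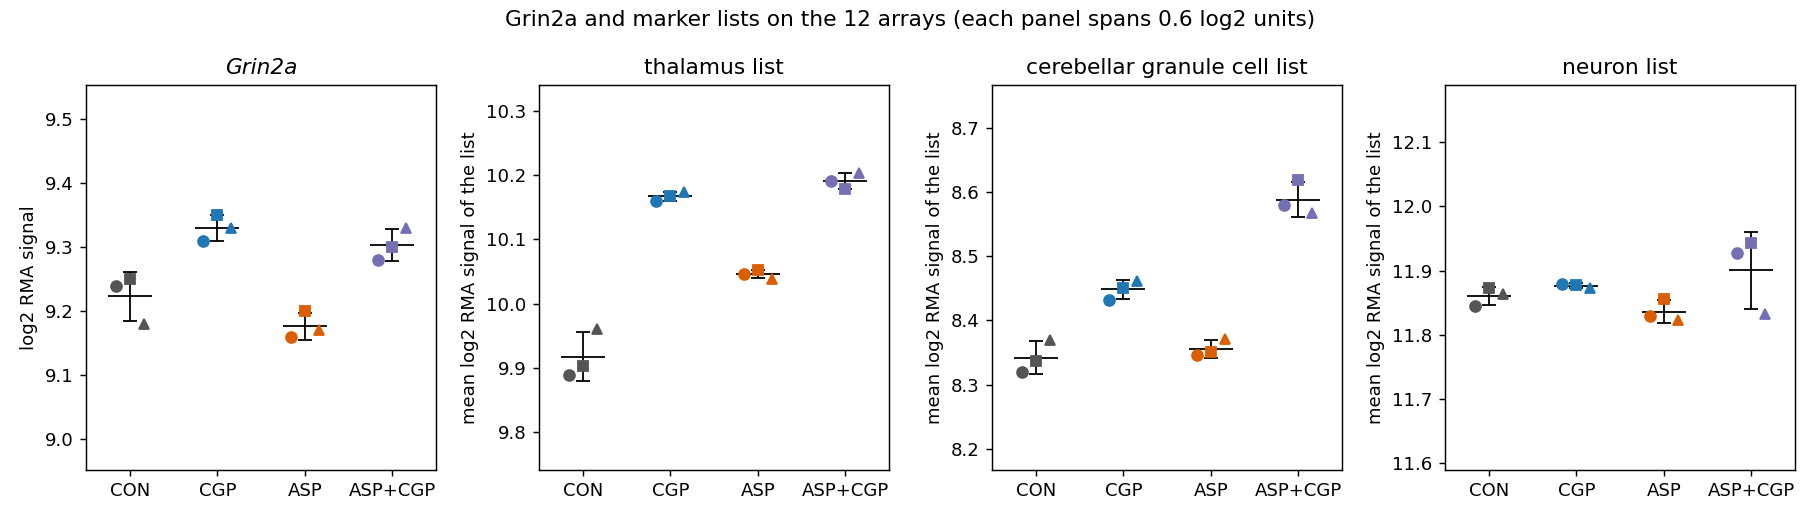
Grin2a (log2 RMA signal, first panel) beside the mean log2 RMA signal of the thalamus, cerebellar granule cell and neuron marker lists on the 12 arrays, by pool. Symbols are arrays, the long bar is the pool mean and whiskers are 1 SD. Grin2a and the thalamus list are both highest in CGP and ASP+CGP.

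Grin2b, the GluN2B subunit gene that dominates early in development, had the widest span of pool means and also a wide spread between arrays. The CON arrays read 10.36, 10.37 and 10.02, and the CGP arrays 10.46, 10.42 and 10.41. The ASP arrays read 10.35, 10.43 and 10.27, and the ASP+CGP arrays 10.52, 10.52 and 10.34. CGP arrays lay above the CON arrays, whereas ASP and ASP+CGP arrays overlapped with CON. Relative to CON the differences were 0.18 ± 0.08 in CGP (adjusted p = 0.43), 0.10 ± 0.08 in ASP (adjusted p = 0.59) and 0.21 ± 0.08 in ASP+CGP (adjusted p = 0.25). Its residual SD of 0.12 exceeded that of 91.1% of genes, and the third CON array deviated from its pool mean by -0.23. Without the 2 deviating arrays the same 3 differences were 0.06, -0.02 and 0.15. In those 10 arrays Grin2b passed the adjusted p in ASP+CGP vs ASP (0.17 ± 0.05, adjusted p = 0.043), where 9.92% of all genes passed. With all 12 arrays that difference was 0.11 ± 0.08 (adjusted p = 0.49).

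The balance of Grin2a and Grin2b was followed as the difference of their log2 signals on each array, of which only the change between pools can be read. It was -1.12, -1.12 and -0.84 on the CON arrays and -1.15, -1.07 and -1.08 on the CGP arrays. The ASP arrays gave -1.19, -1.24 and -1.10, and those of ASP+CGP gave -1.23, -1.22 and -1.01. The pools overlapped widely. The 6 arrays with antagonist differed from the 6 without by -0.03, within the spread between arrays (exact permutation test over 924 regroupings, two-sided, p = 0.74). The regroupings moved single arrays freely between pools, although the arrays of a pool are repeat measurements and not independent units. That p-value therefore describes the arrays and cannot test an effect of the antagonist. For pairs of pools the exact p-values lay between 0.2 and 0.8, where 3 arrays against 3 cannot go under 0.1, and after adjustment over the 7 comparisons all lay between 0.7 and 0.8.

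Grin2c and Grin2d complete the glutamate-binding subunits. Grin2c, known from cerebellar granule cells and astrocytes, moved least. Its arrays read 9.03, 9.13 and 9.01 in CON and 9.12, 9.13 and 9.11 in CGP, and 9.06, 9.11 and 9.04 in ASP and 9.07, 9.15 and 9.02 in ASP+CGP. The pools with and without antagonist overlapped, and the antagonist average was 0.04 ± 0.03 (adjusted p = 0.59). Grin2d, known for slowly closing channels and for expression in the diencephalon, brainstem and interneurons, read 9.41, 9.44 and 9.27 in CON, 9.43, 9.42 and 9.40 in CGP, and 9.34, 9.40 and 9.46 in ASP. The ASP+CGP arrays read 9.37, 9.41 and 9.04, the last of which was the lowest of all 12. ASP+CGP vs CON gave -0.10 ± 0.08 for Grin2d (adjusted p = 0.6), and -0.04 without the 2 deviating arrays.

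The glycine-binding subunit genes are Grin3a, which is most prominent in early postnatal brain, and Grin3b, which is best known from motor neurons. Grin3a arrays read 10.07, 10.13 and 9.96 in CON, 10.13, 10.18 and 10.16 in CGP, 10.13, 10.04 and 10.05 in ASP, and 10.22, 10.20 and 9.96 in ASP+CGP. The 2 deviating arrays were again the lowest of their pools, as for Grin2b and Grin2d. Grin3a differed from CON by 0.10 ± 0.07 in CGP (adjusted p = 0.58) and by 0.07 ± 0.07 in ASP+CGP (adjusted p = 0.66). Without those 2 arrays the value in ASP+CGP vs CON was 0.11 ± 0.04 (adjusted p = 0.2).

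Grin3b had its lowest level in ASP. Its arrays read 7.23, 7.26 and 7.26 in CON, 7.29, 7.22 and 7.26 in CGP, 7.21, 7.22 and 7.13 in ASP, and 7.28, 7.32 and 7.28 in ASP+CGP. All ASP arrays lay under all CON arrays, and all ASP+CGP arrays lay above them. Such a lack of overlap between 3 arrays and 3 was common. Among the subunit genes it was found for 1 of 6 in ASP vs CON (23.9% of all genes), 2 in CGP vs CON (19.4%), 2 in ASP+CGP vs CON (17.3%), 2 in ASP+CGP vs ASP (27%), 0 in ASP+CGP vs CGP (22.5%) and 2 in CGP vs ASP (30%). The differences were -0.06 ± 0.04 in ASP vs CON (adjusted p = 0.48), 0.04 ± 0.04 in ASP+CGP vs CON (adjusted p = 0.67) and 0.10 ± 0.04 in ASP+CGP vs ASP (adjusted p = 0.16). The interaction was 0.10 ± 0.06 (adjusted p = 0.4). The ASP pool also carried markers of adrenal gland, pancreas and fat that were far lower elsewhere: the summed log2 signal of 11 adrenal markers was 14.17 to 14.20 in ASP and 9.81 to 9.92 in the other pools. For 10 pancreas markers it was 12.30 to 12.34 in ASP and 10.31 to 10.49 elsewhere, and for 11 adipose markers it was 12.83 to 12.89 and 10.15 to 10.29. Adrenal Hsd3b1 and Mc2r, pancreatic Zg16 and adipose Fabp4, Adipoq, Cd36 and Lep were under 6 on all arrays of the 3 other pools and not in ASP. These genes passed the filter only through the ASP arrays, so their place in the sums is no further sign of a high level in ASP. The part of adrenal gland, pancreas and fat in the values of subunit genes in ASP was not tested.

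Counted by comparison, 0 of 6 subunit genes were called at an adjusted p under 0.05 and a fold change over 1.4 in CGP vs CON, against 0.111% of all genes. The counts were also 0 of 6 in ASP vs CON (1.05% of genes), ASP+CGP vs CON (0.18%), ASP+CGP vs ASP (1.27%), ASP+CGP vs CGP (0.163%) and CGP vs ASP (0.943%). They were 0 of 6 for the aspartame average (0.431%) and for the interaction (1.5%). With so few genes called in all, 0 of 6 does not separate the subunit genes from other genes. By the adjusted p alone, 0 of 6 passed in CGP vs CON (0.628% of genes), ASP vs CON (4.08%), ASP+CGP vs CON (1.75%), ASP+CGP vs ASP (6.92%), ASP+CGP vs CGP (0.978%), the aspartame average (2.79%) and the interaction (4.01%). Of 54 intervals, 6 genes in 9 contrasts, 0 reached a fold change of 1.4 in either direction, and the bound farthest from 0 was 0.42 (1.34-fold). Against CON the bound farthest from 0 among 18 intervals was 0.39 (1.31-fold), that of Grin2b in ASP+CGP. Before adjustment, limma gave 7 of the 54 p-values under 0.05. By contrast, 1 of 6 members lay under it in CGP vs CON (11.6% of genes), 0 in ASP vs CON (16.9%), 1 in ASP+CGP vs CON (15.4%), 2 in ASP+CGP vs ASP (21.1%), 0 in ASP+CGP vs CGP (14.2%) and 1 in CGP vs ASP (16%). The counts were 2 in the antagonist average (18%), 0 in the aspartame average (14.3%) and 0 in the interaction (17.9%).

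**Figure D3:**
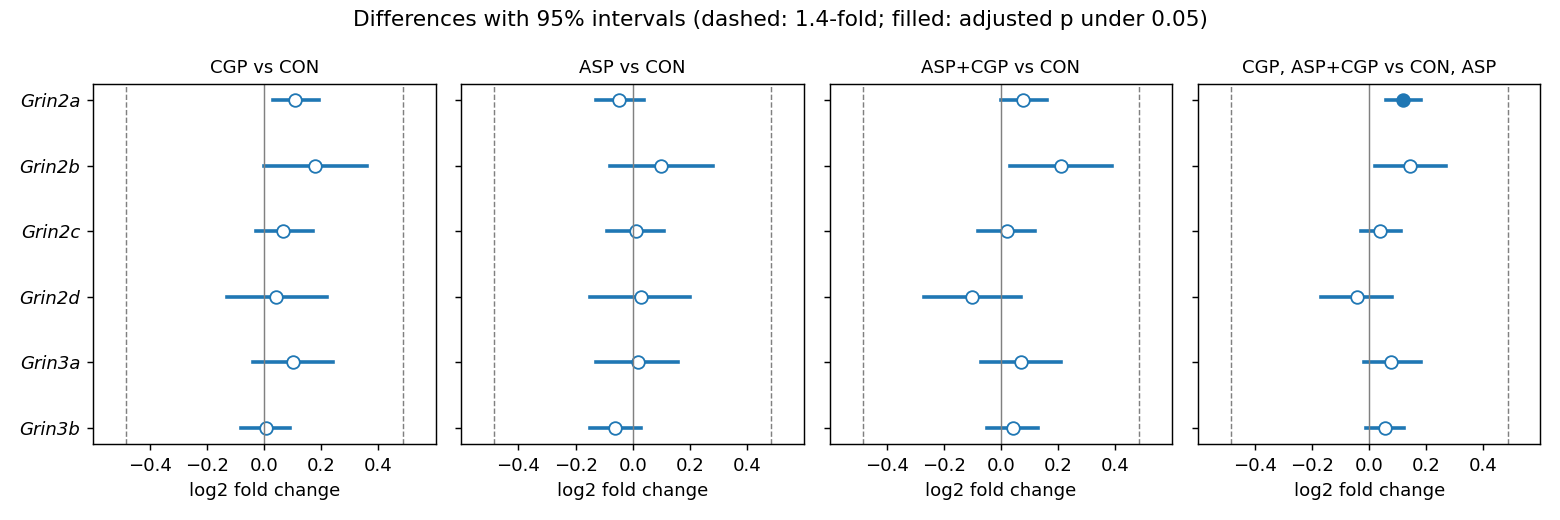
Log2 fold change (horizontal axis) of the 6 NMDAR subunit genes in the 3 comparisons with CON and in the average of the pools with antagonist against those without. Points are estimates, lines are 95% intervals from limma, dashed lines mark a 1.4-fold change and a filled point an adjusted p under 0.05. No interval reaches a dashed line, and Grin2a in the antagonist average is the only filled point.

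The subunit genes varied together to different degrees across the 12 arrays, which share pools and array quality, so the following correlations are descriptions. Grin2b and Grin3a correlated at r = 0.74, Grin2c and Grin3a at 0.71, Grin2b and Grin2c at 0.66, and Grin2d and Grin3a at 0.60. Grin2a correlated with the others at between -0.14 (Grin2d) and 0.58 (Grin3b). After pool means were removed, Grin2d and Grin3a correlated at 0.83, while Grin2a and Grin3a were at -0.05. The shared component of the former pair lay within pools, where the 2 deviating arrays read low for both.

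Among all genes tested, those whose pattern over the 12 arrays was most like Grin2a were Adcy8, a calcium-stimulated adenylyl cyclase gene (r = 0.91), Ccdc136 (0.91) and Smg1, a kinase gene of nonsense-mediated decay (0.91). Without the 2 deviating arrays these values were 0.90, 0.97 and 0.93. For Grin3b they were the replication licensing gene Cdc6 (0.96, at signals of 6.63 to 7.01, close to the minimum of 6), Rnf227 (0.94) and Btnl5-ps (0.93), and on 10 arrays 0.98, 0.94 and 0.96. For Grin2c they were Pdgfra, the marker gene of oligodendrocyte precursors (0.92), Lrp4 (0.92) and Lpcat2 (0.91), and on 10 arrays 0.88, 0.93 and 0.94. For Grin3a they were Ntrk2, the gene of the BDNF receptor TrkB (0.95), Sema6d (0.95) and Rab6a (0.94), and on 10 arrays 0.89, 0.88 and 0.88. For Grin2b they were Frrs1l, an AMPA receptor assembly gene (0.93), Mb21d2 (0.92) and Tspyl4 (0.91), which fell to 0.78, 0.76 and 0.64. For Grin2d they were 9130023H24Rik, B4galnt4 and Prelid1 at 0.97 each, which fell to 0.68, 0.62 and 0.56. For these 2 subunit genes the likeness was thus lower once the deviating arrays were left out. The 10 arrays are part of the 12 on which these genes were picked, so their values are no separate check.

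The wider receptor machinery was examined through 7 lists with 100 measured genes besides the subunits. Past the adjusted p lay 3 of the 100 in CGP vs CON (0.628% of all genes), 7 in ASP vs CON (4.08%), and 5 in ASP+CGP vs CON (1.75%). The count was largest in ASP+CGP vs ASP, with 15 of the 100, 11 of them higher (6.92% of all genes). It was 2 in ASP+CGP vs CGP (0.978%), 4 in CGP vs ASP (3.42%), 8 in the antagonist average (4.4%), 5 in the aspartame average (2.79%) and 9 in the interaction (4.01%). Against CON, only Slc6a5 and Slc1a5 also exceeded the fold change of 1.4, and every other pathway gene said to pass did so by the adjusted p alone. The list medians stayed between -0.12 and 0.12 in the 3 comparisons with CON, beside -0.01 to 0.01 for all genes.

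**Figure D4:**
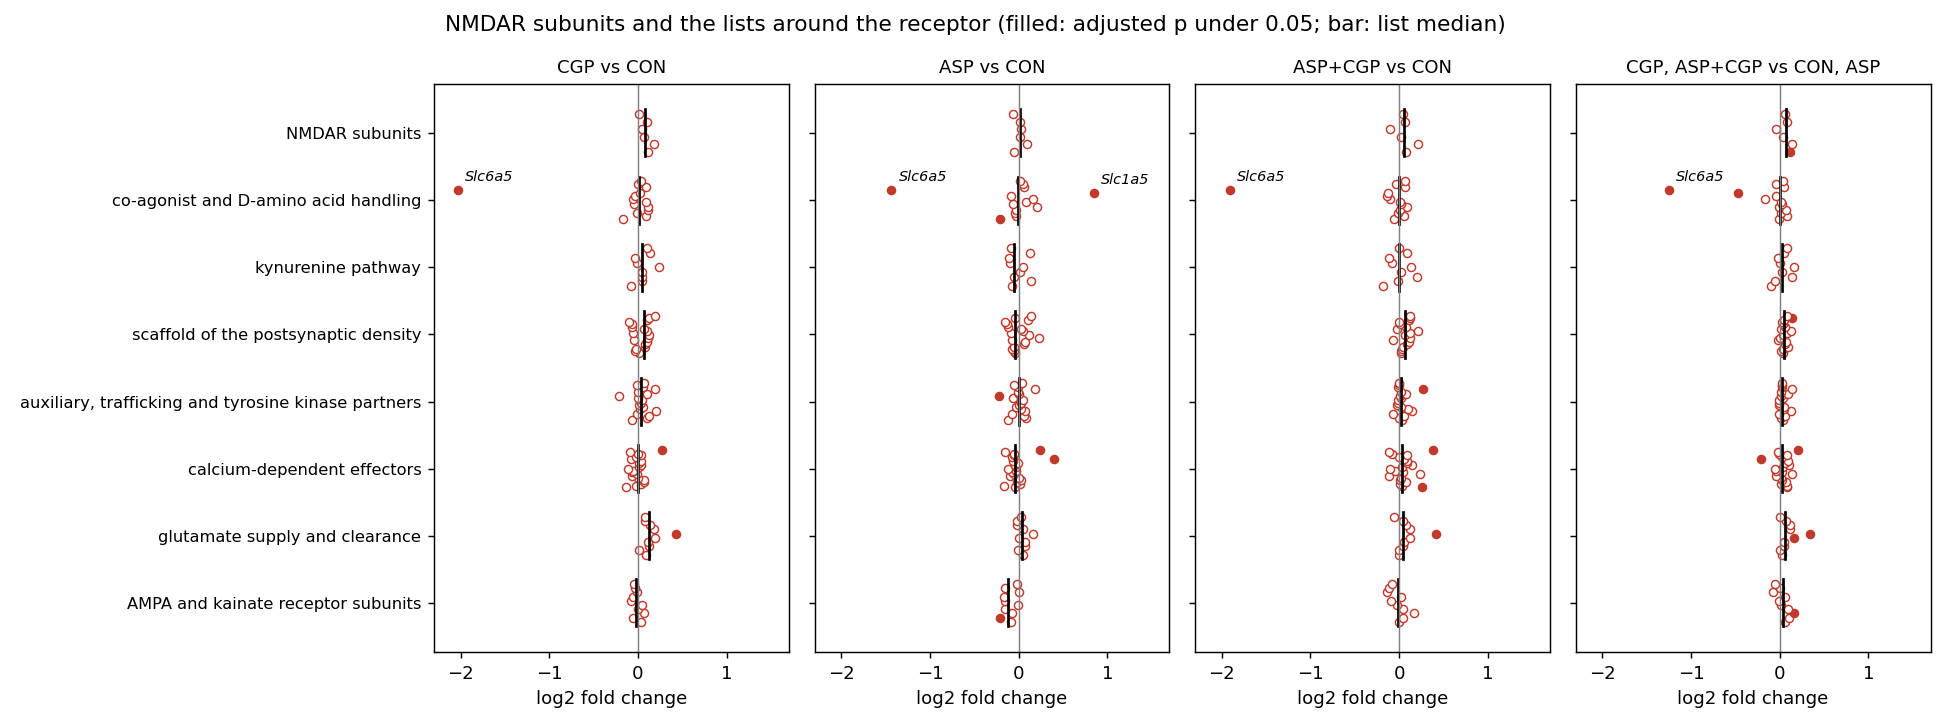
Log2 fold change (horizontal axis) of every measured gene of the NMDAR subunits and of 7 lists around the receptor (rows) in 4 comparisons. Points are genes, filled where the adjusted p is under 0.05, and the vertical bar is the list median. Only Slc6a5 and Slc1a5 pass the adjusted p together with a 1.4-fold change and are labelled.

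Slc6a5 and Slc1a5, the 2 genes that exceeded the fold change, are on the list of co-agonist handling. That list as a whole had medians of 0.01, 0.00 and 0.00 against CON in CGP, ASP and ASP+CGP. Slc6a5, the neuronal glycine transporter GlyT2, was lower in every treated pool: its log2 signals were 9.33 to 9.61 in CON, 7.33 to 7.46 in CGP, 7.88 to 8.11 in ASP and 7.43 to 7.65 in ASP+CGP. Its differences from CON were -2.03 ± 0.08, -1.43 ± 0.08 and -1.91 ± 0.08 (adjusted p at most 3.6e-08). GlyT2 is best known from glycinergic neurons of brainstem and spinal cord. The part of tissue outside the hypothalamus in the Slc6a5 values, those of CON included, was not tested. The glial transporter gene Slc6a9 (GlyT1), which sets glycine around NMDARs, gave 0.09 ± 0.06 in CGP vs CON (adjusted p = 0.59). Slc6a9 did not pass the adjusted p in ASP or ASP+CGP against CON. Slc1a5, a neutral amino acid exchanger that also carries D-serine, was 0.85 ± 0.05 higher in ASP than in CON (1.81-fold, adjusted p = 1.3e-07), with signals of 8.15 to 8.37 in ASP against 7.22 to 7.45 in the other pools. The ASP pool is the one with the adrenal, pancreas and fat markers, whose part in the Slc1a5 value was not tested. Dao, the D-amino acid oxidase gene, was 0.21 lower in ASP (-0.21 ± 0.05, adjusted p = 0.042), but did not pass in 9 of 12 fits that left out 1 array, nor without the 2 deviating arrays. Srr, the serine racemase gene that makes D-serine, gave 0.03 ± 0.05, 0.02 ± 0.05 and 0.06 ± 0.05 in CGP, ASP and ASP+CGP. The kynurenine pathway makes the NMDAR agonist quinolinate and the antagonist kynurenate. Of its 11 genes 9 were measured, and 0 passed in the 3 comparisons with CON or in the antagonist average. Its lowest p-values in the F test were those of Ido1 and Qprt, which ranged from -0.05 to 0.20 and from -0.08 to 0.10 against CON.

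The scaffold of the postsynaptic density, which holds NMDARs at synapses, had 18 of 19 genes measured and 0 past the adjusted p against CON. Homer1, whose protein links metabotropic glutamate receptors to the scaffold, read 8.58 to 8.71 in CON, 8.56 to 8.61 in CGP, 8.52 to 8.57 in ASP and 8.74 to 8.77 in ASP+CGP. Its arrays were highest with both agents, and the interaction of 0.26 ± 0.06 (adjusted p = 0.025) did not pass in 5 of 12 fits that left out 1 array. Markers of other regions were also highest in ASP+CGP. Of 5 striatum markers, with summed log2 signals of 12.06 to 12.11 in CON, 11.97 to 12.00 in CGP, 12.10 to 12.14 in ASP and 12.21 to 12.25 in ASP+CGP, 2 had an interaction past the adjusted p, Ppp1r1b (0.41 ± 0.07) and Pde10a (0.29 ± 0.06), and none was under 6. Of 14 cerebellar granule cell markers, Cbln3 (0.94 ± 0.14) and Gabra6 (0.64 ± 0.12) had a positive interaction past it and 1 had a negative one. Pituitary markers had negative interactions for 10 of 11 genes (median -2.76), counting Gnrhr, which met the minimum signal only through CGP and ASP arrays. In the interaction 4.01% of all genes passed the adjusted p. The part of these regions in the Homer1 value was not tested. Shank3, a master scaffold gene, gave 0.20 ± 0.04 in CGP (adjusted p = 0.06), 0.14 ± 0.04 in ASP (adjusted p = 0.084) and 0.12 ± 0.04 in ASP+CGP (adjusted p = 0.19). Dlg4, which encodes the NMDAR-anchoring protein PSD-95, gave 0.07 ± 0.06, 0.06 ± 0.06 and 0.09 ± 0.06. Shank2 was 0.14 ± 0.04 higher in the antagonist average (adjusted p = 0.04), which did not pass in 10 of 12 fits that left out 1 array. Among 18 of 20 auxiliary, trafficking and kinase partners, 1 was lower in ASP and 1 higher in ASP+CGP. The first was Neto1, an auxiliary protein gene of NMDA and kainate receptors, at 10.24 to 10.31 in CON, 10.01 to 10.12 in CGP, 10.03 to 10.12 in ASP and 10.22 to 10.38 in ASP+CGP. The arrays of CGP and ASP lay below those of CON and ASP+CGP. Neto1 differed from CON by -0.22 ± 0.05 in ASP (adjusted p = 0.025), by -0.22 ± 0.05 in CGP (adjusted p = 0.088) and by 0.01 ± 0.05 in ASP+CGP (adjusted p = 0.92), and the interaction was 0.45 ± 0.07 (adjusted p = 0.0018). The interaction passed in all 12 fits that left out 1 array, and ASP vs CON did not pass the adjusted p in 4 of them. The part of the regions above, whose markers also had interactions, was not tested. Ptk2b, the calcium-activated tyrosine kinase Pyk2, was 0.27 ± 0.06 higher in ASP+CGP (adjusted p = 0.039), which did not pass in 11 of those fits.

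Calcium-dependent effectors, which act downstream of the channel, had 21 of 24 genes measured. Rasgrp1, a Ras activator gene regulated by calcium and diacylglycerol, was higher in all treated pools, with signals of 11.47 to 11.54 in CON, 11.73 to 11.80 in CGP, 11.73 to 11.74 in ASP and 11.79 to 11.94 in ASP+CGP. Its differences from CON were 0.27 ± 0.05 (adjusted p = 0.015), 0.24 ± 0.05 (adjusted p = 0.0074) and 0.38 ± 0.05 (adjusted p = 0.00057), and the first did not pass in 4 of 12 fits that left out 1 array. Thalamus markers moved the same way in these 3 comparisons, with list medians of 0.28, 0.17 and 0.31. At an adjusted p under 0.05, 8, 7 and 9 of 12 markers were higher, where 0.628%, 4.08% and 1.75% of all genes passed. The part of the thalamus in the Rasgrp1 values was not tested. Akap5, which anchors protein kinase A and calcineurin beside glutamate receptors, read 8.18 to 8.24 in CON, 8.06 to 8.12 in CGP, 8.11 to 8.24 in ASP and 8.42 to 8.51 in ASP+CGP. The ASP+CGP arrays lay above all others, 0.25 ± 0.05 over CON (adjusted p = 0.011), 0.39 ± 0.05 over CGP (adjusted p = 0.00069) and 0.29 ± 0.05 over ASP (adjusted p = 0.001), with an interaction of 0.43 ± 0.06 (adjusted p = 0.0012). Akap5 passed in ASP+CGP vs CON by the adjusted p alone (1.19-fold), and not without the first or the second ASP+CGP array, whereas the interaction passed in all 12 fits. The striatum markers Ppp1r1b and Pde10a were also highest in ASP+CGP, at 0.27 ± 0.05 and 0.26 ± 0.05 over CON and 0.46 ± 0.05 and 0.33 ± 0.05 over CGP. Cerebellar Cbln3 and Gabra6 were 0.74 ± 0.10 and 0.54 ± 0.09 over CON, and the part of these regions in the Akap5 values was not tested. Prkar2b, a regulatory subunit of protein kinase A that is prominent in fat, was 0.41 ± 0.07 higher in ASP (adjusted p = 0.0018). Adipose markers were also higher in that pool, and their part in the Prkar2b value was not tested. Camk2a, the kinase gene that binds GluN2B, gave 0.06 ± 0.04, -0.02 ± 0.04 and 0.07 ± 0.04 against CON, and Nos1 gave -0.12 ± 0.05, -0.12 ± 0.05 and -0.11 ± 0.05, neither with an adjusted p under 0.2.

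Glutamate supply was represented by 10 of 12 genes. Slc17a7, the vesicular transporter gene VGLUT1, was 0.43 ± 0.06 higher in CGP (1.35-fold, adjusted p = 0.0057) and 0.41 ± 0.06 higher in ASP+CGP (adjusted p = 0.0041) than in CON. Its signals were 9.86 to 10.05 in CON, 10.36 to 10.40 in CGP, 10.08 to 10.14 in ASP and 10.21 to 10.45 in ASP+CGP. Like Grin2a, it was higher with the antagonist on average over diets (0.34 ± 0.05, adjusted p = 0.00042). Slc17a7 is also on the list of cortex and hippocampus markers, of which 8 of 12 were measured. In the antagonist average 6 of these 8, Slc17a7 among them, lay above 0 (list median 0.11 against 0.01 for all genes). Past the adjusted p, Lamp5 was lower (-0.28 ± 0.04). The part of cortex and hippocampus in the Slc17a7 values was not tested. Slc17a6, which encodes VGLUT2, the main vesicular glutamate transporter of hypothalamus and thalamus, was 0.16 ± 0.04 higher in the antagonist average (adjusted p = 0.044), which did not pass in 11 of 12 fits that left out 1 array. Both transporters are used by neurons of the thalamus or habenula, whose markers moved the same way, and the part of those regions was not tested. Among AMPA and kainate receptor subunits 10 of 11 were measured. The largest count was in ASP+CGP vs ASP, where 4 of the 10 were higher at an adjusted p under 0.05 and 6.92% of all genes passed it. These were Gria2 (0.26 ± 0.05), Gria3 (0.25 ± 0.05), Gria4 (0.19 ± 0.05) and Grik2 (0.18 ± 0.04), of which Gria4 did not pass in 9 of the 12 fits that left out 1 array and Grik2 in 4. Gria3 was 0.16 ± 0.03 higher in the antagonist average (adjusted p = 0.019), which did not pass in 4 of those fits. Gria2 was lower in ASP than in CON (-0.21 ± 0.05, adjusted p = 0.042), which did not pass in 9 of them, nor without the 2 deviating arrays. The ASP pool carried the adrenal, pancreas and fat markers, and the striatum and cerebellar markers above were higher in ASP+CGP than in ASP, and their part in these values was not tested.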

How the data were processed

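The platform was the Affymetrix Mouse Gene 1.0 ST array, with 12 arrays of 4 pools of hypothalamic RNA. The deposited table holds log2 values that the authors made by RMA in Partek, per the submitters' processing notes. It was used as deposited, with all sample columns. RMA equalizes the distributions of the arrays, so a change shared by most genes would not be seen. Array medians were 8.28 to 8.34. The genome build behind the probe sets is not given in the sources used here, so no coordinates are printed, and no sequences of the subunit genes are printed.

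Of 29149 probe sets, 19019 carried 1 gene symbol in the platform annotation, 1197 several and 8933 none, and symbols of all 6 subunits matched the RefSeq table of mouse genes. Those with 1 symbol were tested if 3 or more arrays reached a signal of 6, and a gene with several was represented by the one of highest mean. This left 17186 genes. With limma 3.58.1 in R 4.3.3, 1 mean per group was fitted to all 12 arrays, and 9 contrasts and a moderated F test were computed, with Benjamini-Hochberg adjustment over all genes. Calls required an adjusted p under 0.05 and a fold change over 1.4, and those by the adjusted p alone are named as such. The steps were tested on simulated data. The number of arrays limits the precision.

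Named genes were the subunits, the genes of each pathway list called against CON or otherwise those with the 2 lowest p-values in the F test, the 3 genes most like each subunit, and at most 3 markers per list. Slc6a9, Srr, Dao, Dlg4, Shank2, Camk2a, Nos1, Prkar2b, Gria4, Grik2, Lamp5 and the markers under 6 were named after their values were seen. The subunits and all lists were chosen with earlier results of these data known. Array numbers did not pair the arrays, and a fit with them as a block is an alternative.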

Additional observations from a re-analysis of the deposited data

How the results depend on the processing

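In 793 recomputed differences of subunit genes the farthest lay 0.12 from the reported value, and 0 of 6 genes were called with a fold change of 1.4, or of 1.2, in every comparison and alternative run. Grin2a in the antagonist average passed in 19 of 24 alternatives (0.10 to 0.13, adjusted p = 0.0045 to 0.068), and the count of genes past the adjusted p was 0 to 1 when 1 array was left out. In CGP vs ASP the count was 0 with all probe sets, with median centring and with the replicate block, and 0 to 1 when 1 array was left out. In ASP+CGP vs ASP it was 1 (Grin2a) with further quantile normalization, without moderation and with array weights, 1 (Grin2b) without the 2 deviating arrays, an alternative chosen after seeing the data, and 0 to 1 when 1 array was left out. The F test called 1 gene, Grin2a, with a signal of at least 7, further quantile normalization, trend and robust moderation, no moderation, array weights and without the 2 deviating arrays, and 0 to 1 when 1 array was left out. The cause was not tested.

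Small differences changed sign. Without the 2 deviating arrays, ASP vs CON was -0.02 for Grin2b, -0.01 for Grin2c, -0.02 for Grin2d and -0.03 for Grin3a, and CGP vs CON was -0.01 for Grin2d. ASP vs CON was -0.01 for Grin2d and -0.01 for Grin3a with array weights, and CGP vs CON was -0.01 for Grin3b with further quantile normalization. When 1 array was left out, CGP vs CON ranged from -0.01 to 0.07 for Grin2d and -0.01 to 0.02 for Grin3b. ASP vs CON ranged from -0.02 to 0.16 for Grin2b, -0.01 to 0.05 for Grin2c, -0.02 to 0.06 for Grin2d and -0.03 to 0.06 for Grin3a. ASP+CGP vs CON ranged from -0.01 to 0.06 for Grin2c and -0.17 to 0.02 for Grin2d, and the antagonist average of Grin2d from -0.08 to 0.01. The difference of Grin2a and Grin2b between the arrays with and without antagonist was 0.00 without the 2 deviating arrays and -0.05 to 0.03 with 1 array left out. In CGP vs CON it was 0.02 and -0.12 to 0.02.

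Of 18 pairs of arrays with the same number, 6 correlated above 0.1 (-0.11 to 0.54), and 5 of 12 arrays lay closest to one of their own number. The replicate block changed no other count of subunit genes. Of the recomputed values of pathway genes that had passed the adjusted p, 988 passed again, 218 did not and 0 changed sign, and thalamus markers higher in the antagonist average numbered 8 to 9. Further quantile normalization and median centring moved the median of all genes by at most 0.022.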
